A study of Equus caballus with 10 samples.

Results

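The genes described here are 8 components and readouts of mechanical signalling: the transcriptional co-activators YAP1 and WWTR1 (the gene of TAZ), 4 of their usual target genes (CCN1, CCN2, ANKRD1 and AMOTL2), and the mechanically gated channels PIEZO1 and PIEZO2. They were chosen by name from the 29196 genes of the deposited table, in which CCN2 is listed under its older symbol CTGF and CCN1 as CYR61, and all 8 were found. RNA was sequenced from tenocytes, the fibroblasts of tendon, of 5 adult horses, here called donors 1 to 5. Cells taken from the superficial digital flexor tendon were grown for 14 days in 3D collagen gels, and each donor gave 1 library to each of 2 groups. In the group PF-06650833 alone the gels received PF-06650833, which blocks the kinase IRAK-4, at 100 nM every day, and in the group IL-1β plus PF-06650833 they received the same inhibitor and 17 ng/ml of the inflammatory cytokine IL-1β every 3 to 4 days. Both groups therefore carry the inhibitor, and libraries without it were not used here. The comparison addresses what IL-1β still changes while IRAK-4 is inhibited. The cells were cultured for several passages before use, so they are a cultured model of tendon.

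YAP and TAZ carry mechanical information to the nucleus. In cells that spread on or pull against a stiff matrix they enter the nucleus and, bound to TEAD factors, switch on genes such as CCN1 and CCN2, while the kinases of the Hippo pathway phosphorylate them and hold them in the cytoplasm. PIEZO channels open when the membrane is stretched and let calcium into the cell. Tendon cells live under load, and the gel culture lets them pull on collagen, so these genes are common readouts of how cells sense their matrix.

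The values are log2 expression after a variance-stabilizing transformation, in which a gene with 0 reads has the value 3.433. The depth estimated from the values was 26672300 to 36093500 reads per library with the inhibitor alone and 27002100 to 33464200 reads with IL-1β and the inhibitor. The lowest estimate belonged to donor 3 with the inhibitor alone. Of 11 tenocyte markers 10 could be looked up. COL1A1, COL1A2, DCN and LUM were high in every library, whereas the late tendon marker TNMD was at 0 reads in all 10. Of 6 leukocyte markers CD3E was at 0 reads in all 10 libraries, PTPRC and CSF1R were above 0 in 1 each and CD79A in 3. CD14 was above 0 in 6 and reached a normalized count of 1682. Its log2 fold change was 2.66 (adjusted p = 0.340 from limma), higher in 4 donors. CD68, a lysosomal protein of macrophages, was above 0 in all 10 with a log2 fold change of 1.70 (adjusted p = 0.00795 from limma). Of 4 epithelial markers EPCAM was at 0 reads in all 10 libraries, KRT8 and KRT18 reached normalized counts of at most 5.29 and 5.34, and CDH1 was above 0 in all 10 with a log2 fold change of -2.22 (adjusted p = 0.0136 from limma). The 5 endothelial markers summed to normalized counts of at most 45.9 in a library. Of the 9 tenocyte markers tested, the tendon transcription factors SCX (log2 fold change -3.24) and MKX (-2.85) and the matrix gene COMP (-3.63) were differentially expressed, all lower. The other 6 were not in the unblocked fit, with log2 fold changes from -1.38 for COL1A1 to 0.33 for LUM and 1.01 for DCN. With the donor as a replicate block COL1A1 (adjusted p = 0.0147) and COL1A2 (-1.28, adjusted p = 0.0169, both from limma) were also differentially expressed. Both were lower in 5 of 5 donors. Because these are bulk samples, fewer cells of a type and less RNA per cell cannot be told apart.

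None of the 8 genes was differentially expressed between the groups. Differential expression required both an adjusted p below 0.05 (limma, Benjamini-Hochberg over 17992 tested genes) and a log2 fold change of 1 or more in either direction. Of the 8 genes 7 were tested and 0 passed, against 6.68% of all tested genes. With the threshold on the adjusted p alone 0 of 7 passed, against 15.5% of all genes, and 1 of 7, CCN1, had an unadjusted p below 0.05, against 29.7% of all genes. With the donor as a replicate block 0 of 7 passed both thresholds (8.26% of all genes) and 1, again CCN1, passed the adjusted p alone (22.2% of all genes). The groups overlapped for each of the 7 genes, whereas groups without overlap were seen in 12.7% of the table. The 4 target genes and YAP1 had lower means with IL-1β and the inhibitor, and WWTR1 and PIEZO1 had higher means. The same 5 genes were each lower in 4 donors, where 32.2% of all genes were lower in at least 4, and WWTR1 was higher in 4 donors, where 31.1% of all genes were higher in at least 4.

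**Figure D1:**
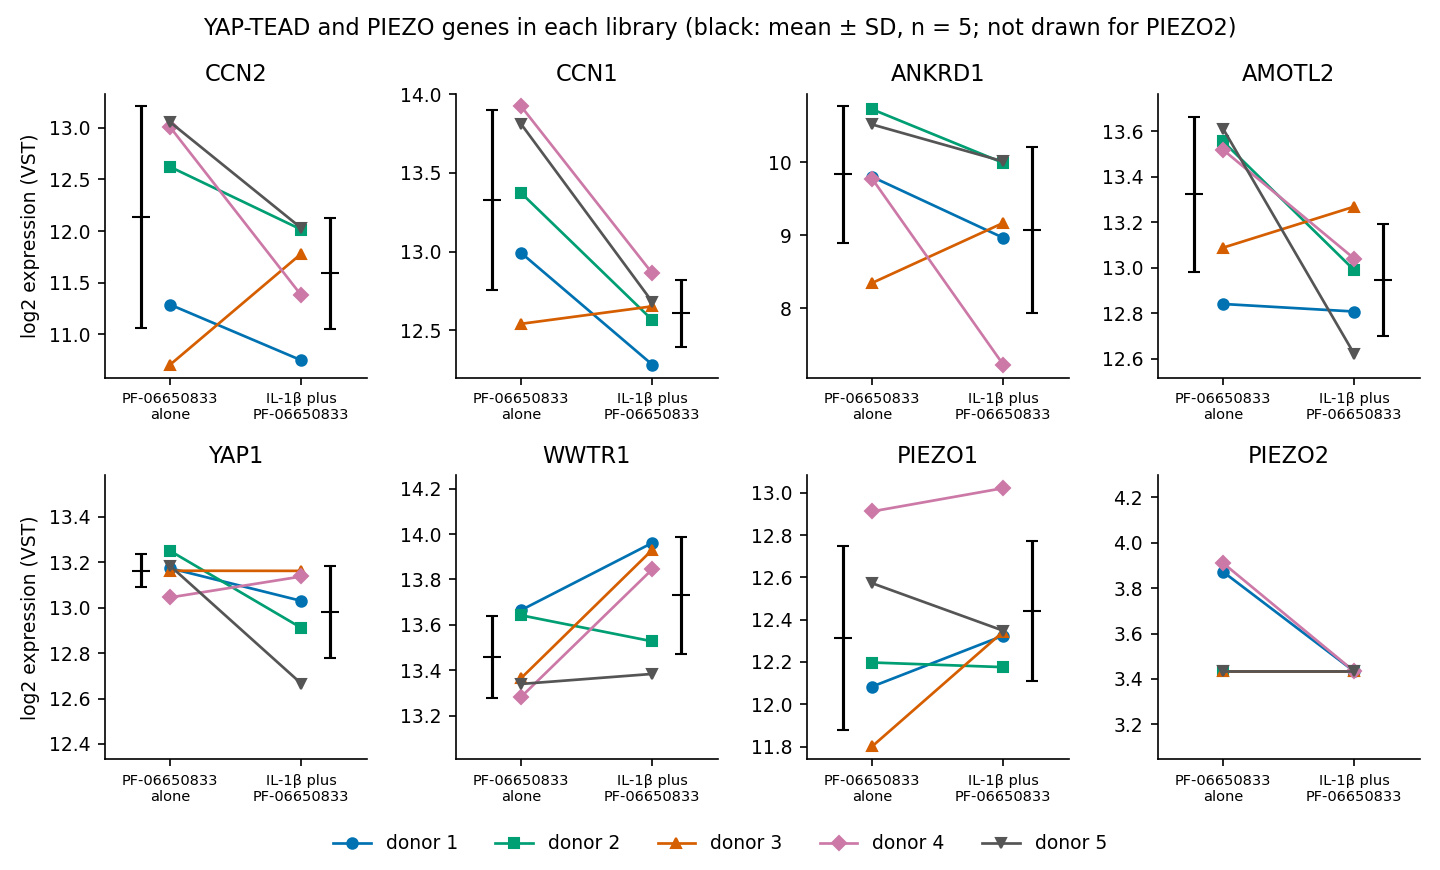
Log2 expression (variance-stabilized, vertical axis) of the 8 genes in each library, with a line joining the 2 libraries of a donor and, in black except for PIEZO2, the mean ± SD of 5 libraries. Vertical scales differ between panels. The 4 target genes were lower with IL-1β and the inhibitor in donors 1, 2, 4 and 5 and higher in donor 3, and PIEZO2 lay at or close to the value of 0 reads throughout.

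CCN1 and CCN2 encode secreted matricellular proteins that bind integrins and are among the most widely used targets of YAP and TAZ. With the inhibitor alone, the log2 expression of CCN1 was 12.99, 13.37, 12.54, 13.92 and 13.81 in donors 1 to 5. With IL-1β and the inhibitor it was 12.28, 12.57, 12.65, 12.86 and 12.68. The SD was 0.21 with IL-1β and the inhibitor and 0.57 with the inhibitor alone, and this difference in spread was not tested. The groups overlapped because of the low value of donor 3 with the inhibitor alone. The mean difference was -0.72 (standard error 0.24, 95% confidence interval -1.25 to -0.19, adjusted p = 0.0686 from limma), which corresponds to 0.608 times the level, and CCN1 was lower in 4 of 5 donors. With the replicate block the standard error was 0.18 and the adjusted p was 0.0241 from limma, still below the minimum fold change.

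CCN2 varied more between donors. With the inhibitor alone its log2 expression was 11.29, 12.62, 10.71, 13.00 and 13.05 in donors 1 to 5, and with IL-1β and the inhibitor it was 10.75, 12.01, 11.78, 11.38 and 12.03. Donors 3 and 5 were 2.34 apart with the inhibitor alone, farther than the treatments were in any donor. The log2 fold change was -0.54 (standard error 0.46, 95% confidence interval -1.55 to 0.46, adjusted p = 0.474 from limma, and 0.275 with the replicate block), lower in 4 of 5 donors. A fall of the size counted as differential expression lies inside this interval.

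ANKRD1 encodes an ankyrin repeat protein of muscle and stretched cells and is another common target. Its log2 expression was 9.80, 10.72, 8.35, 9.77 and 10.51 in donors 1 to 5 with the inhibitor alone, and 8.96, 9.99, 9.17, 7.23 and 10.01 with IL-1β and the inhibitor. Donor 4 had the lowest value with IL-1β and fell by 2.54 on the log2 scale, while donor 3 had the lowest value without it and was higher by 0.82. The log2 fold change was -0.76 (standard error 0.56, 95% confidence interval -1.99 to 0.47, adjusted p = 0.409 from limma, and 0.208 with the replicate block). ANKRD1 was covered by an estimated 92 to 1386 reads per library, the fewest of the 7 tested genes, which were otherwise covered by at least 1265.

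AMOTL2, an angiomotin family scaffold, is both a target of YAP and a protein that binds it. With the inhibitor alone its log2 expression was 12.84, 13.56, 13.09, 13.52 and 13.61 in donors 1 to 5, and with IL-1β and the inhibitor it was 12.81, 12.99, 13.27, 13.04 and 12.62. The difference ran from -0.99 in donor 5 to 0.18 in donor 3, with donor 1 at -0.03. The log2 fold change was -0.38 (standard error 0.17, 95% confidence interval -0.76 to 0.0027, adjusted p = 0.171 from limma, and 0.146 with the replicate block).

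Donor 3 stood apart from the other donors in the same way for all 4 target genes. In donors 1, 2, 4 and 5 each of the 4 was lower with IL-1β and the inhibitor, and in donor 3 each was higher, by 1.07 for CCN2, 0.82 for ANKRD1, 0.18 for AMOTL2 and 0.11 for CCN1. This pattern, noticed after the values were seen, was present in 4.82% of all tested genes. A single donor moving against the 4 others, in either direction, was seen in 3.77%, 4.11%, 8.9%, 9.01% and 3.74% of the genes for donors 1 to 5. With the inhibitor alone donor 3 had the lowest value of the 5 donors for CCN1, CCN2 and ANKRD1, whereas with IL-1β and the inhibitor it lay inside the range of the other 4 for these genes. The spread of the donor differences was larger for ANKRD1 (SD 1.20) and CCN2 (SD 1.00) than for 97.6% and 95.9% of the tested genes, and closer to the median of all tested genes (0.337) for CCN1 (0.495) and AMOTL2 (0.462).

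Without the 2 libraries of donor 3, an alternative fitted for every donor in turn, the log2 fold change was -0.93 for CCN1 (adjusted p = 0.0198 from limma), -0.95 for CCN2 (0.163), -1.15 for ANKRD1 (0.210) and -0.52 for AMOTL2 (0.0882). With the replicate block on the remaining 4 donors, a fit added after the data had been seen, the adjusted p from limma was 0.00258 for CCN1, 0.0142 for CCN2, 0.0480 for ANKRD1 and 0.0601 for AMOTL2, and ANKRD1 alone passed both thresholds. Because donor 3 alone moved against the others in these 4 genes, the larger falls without it follow from the choice of donor. Over the 5 fits with the replicate block that each left out a donor, CCN1 had an adjusted p from limma of 0.0565 to 0.0815 when donor 1, 2, 4 or 5 was left out. Among all 20 fits that left out a library or donor, the adjusted p from limma reached 0.212 for CCN1, 0.775 for CCN2, 0.728 for ANKRD1 and 0.522 for AMOTL2. The pooled values above, with all 5 donors, are the result of the comparison.

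**Figure D2:**
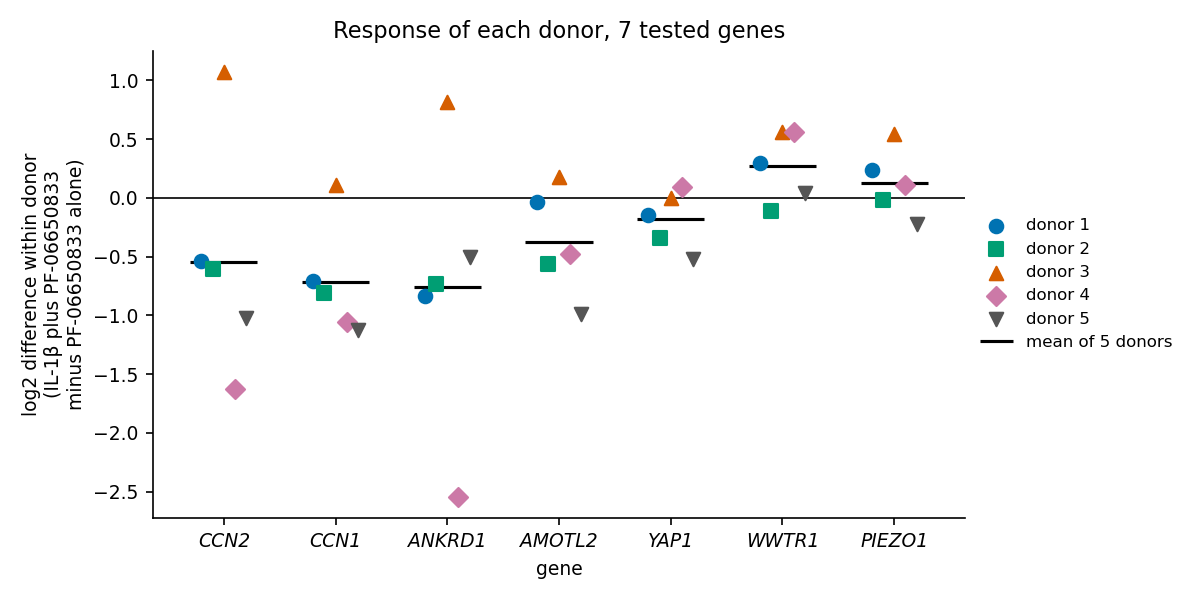
Log2 difference within each donor (IL-1β and the inhibitor minus the inhibitor alone, vertical axis) for the 7 tested genes, with symbols for donors and a black bar for the mean of 5 donors. For CCN2, CCN1, ANKRD1 and AMOTL2 donor 3 lies above 0 and the other donors below it, and the widest spread is that of ANKRD1, from -2.54 to 0.82.

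Markers of smooth muscle and pericytes were measured beside these genes. The summed normalized counts of 5 of them (MYH11, DES, RGS5, CNN1 and NOTCH3) were 21288, 35191, 11530, 38607 and 62410 in donors 1 to 5 with the inhibitor alone and 18739, 16749, 18327, 31290 and 15435 with IL-1β and the inhibitor. The sum was lowest in donor 3 with the inhibitor alone, and it was lower with IL-1β in donors 1, 2, 4 and 5 and higher in donor 3, the directions seen in the 4 target genes. Most of the sum was MYH11 and CNN1, which reached 32516 and 28209 in a library, and neither of them was differentially expressed. MYH11 was lower in 4 of 5 donors. CNN1 was lower in 3 and higher in 2, so it did not share the directions of the sum in every donor. DES (log2 fold change -2.98) and RGS5 (-1.96) were, but they were lower in 5 of 5 donors, donor 3 included, and reached only 1074 and 376. None of the 5 markers was at 0 reads in any library. The part of these cells or of this gene programme in the values of CCN1, CCN2, ANKRD1 and AMOTL2 was not tested.

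YAP1 and WWTR1, the co-activators themselves, were expressed in every library, and neither was differentially expressed. The log2 expression of YAP1 was 13.17, 13.25, 13.16, 13.04 and 13.18 in donors 1 to 5 with the inhibitor alone, with an SD of 0.07. With IL-1β and the inhibitor it was 13.03, 12.91, 13.16, 13.14 and 12.67, with an SD of 0.20. Donor 5 had the lowest value with IL-1β and the largest decrease, -0.52. The log2 fold change was -0.18 (standard error 0.11, 95% confidence interval -0.42 to 0.05, adjusted p = 0.286 from limma, and 0.273 with the replicate block). WWTR1 was at 13.67, 13.64, 13.37, 13.28 and 13.34 with the inhibitor alone and at 13.96, 13.53, 13.93, 13.84 and 13.38 with IL-1β and the inhibitor. It was higher in 4 of 5 donors, with a log2 fold change of 0.27 (standard error 0.14, 95% confidence interval -0.04 to 0.58, adjusted p = 0.227 from limma, and 0.166 with the replicate block). For both genes the interval lies inside a log2 fold change of 1 in either direction.

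The balance between the co-activators differed in the unpaired test, a call that was lost when the donors were paired. The log2 expression of YAP1 minus that of WWTR1 in the same library was -0.49, -0.39, -0.20, -0.24 and -0.16 in donors 1 to 5 with the inhibitor alone and -0.93, -0.62, -0.77, -0.71 and -0.72 with IL-1β and the inhibitor. The groups did not overlap, and the difference was lower in 5 of 5 donors. Its mean changed by -0.45, from -0.30 ± 0.14 (SD, n = 5) to -0.75 ± 0.12 (SD, n = 5; p = 0.00794 by the exact permutation test, two-sided, no smaller p being possible with 5 against 5, and 0.0238 adjusted over 3 pairs of genes). Pairing the donors, the exact sign-flip test gave p = 0.0625 (adjusted p = 0.188), the smallest that 5 donors allow, so the paired design cannot pass the threshold. Gene length was not taken into account, so these numbers show unequal change of YAP1 and WWTR1, not which of them is the more abundant.

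**Figure D3:**
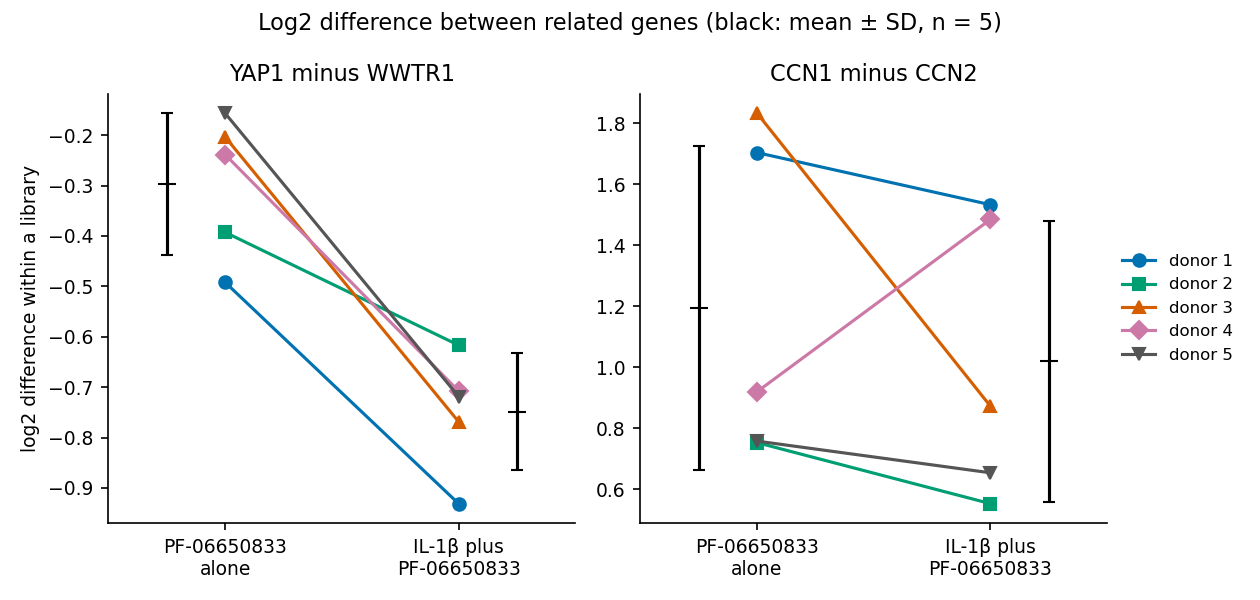
Log2 expression of YAP1 minus WWTR1 (left) and of CCN1 minus CCN2 (right) in each library (vertical axis), with a line per donor and, in black, the mean ± SD of 5 libraries. The YAP1 minus WWTR1 values fell in all 5 donors without overlap between the groups, from -0.30 to -0.75 on average, while the CCN1 minus CCN2 values of the groups overlapped.

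The other pairs did not pass either test. CCN1 minus CCN2 was 1.19 ± 0.53 (SD, n = 5) with the inhibitor alone and 1.02 ± 0.46 (SD, n = 5) with IL-1β and the inhibitor (exact two-sided permutation test, p = 0.548, adjusted p = 0.548), and lower in 4 of 5 donors. Without donor 3 this change had the opposite sign (0.023). PIEZO1 minus PIEZO2 was 8.70 ± 0.40 (SD, n = 5) and 9.01 ± 0.33 (SD, n = 5; exact two-sided permutation test, p = 0.230, adjusted p = 0.345). PIEZO2 was at 0 reads in 8 of 10 libraries and at an estimated 1 read in each of the others. Its mean difference of -0.18 came from those single reads, so this test cannot decide whether the pair changed unequally.

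PIEZO1 was expressed in every library and followed the donor more than the treatment. Its log2 expression was 12.08, 12.20, 11.80, 12.91 and 12.57 in donors 1 to 5 with the inhibitor alone, and 12.32, 12.18, 12.34, 13.02 and 12.35 with IL-1β and the inhibitor. Donor 4 was the highest in both groups. Of the variance of PIEZO1 over the 10 libraries 83.2% lay between donors and 3.39% between the groups, against medians of 45.8% and 19.1% over all tested genes. The log2 fold change was 0.13 (standard error 0.22, 95% confidence interval -0.35 to 0.60, adjusted p = 0.746 from limma, and 0.470 with the replicate block), higher in 3 of 5 donors, and without donor 4 in the group with IL-1β it was -0.015. The share between groups was largest for CCN1, at 46.3%.

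PIEZO2, the channel best known from sensory neurons, was not detectable in most libraries. It was at 3.87 in donor 1 and 3.91 in donor 4 with the inhibitor alone, an estimated 1 read each, and at the value of 0 reads in the other 3 libraries of that group and in all 5 with IL-1β and the inhibitor. It was above 0 in too few libraries to be tested. A count of 0 allows up to 3 reads, or 0.0831 to 0.112 RPM in these libraries, a limit that covers counting error only.

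**Figure D4:**
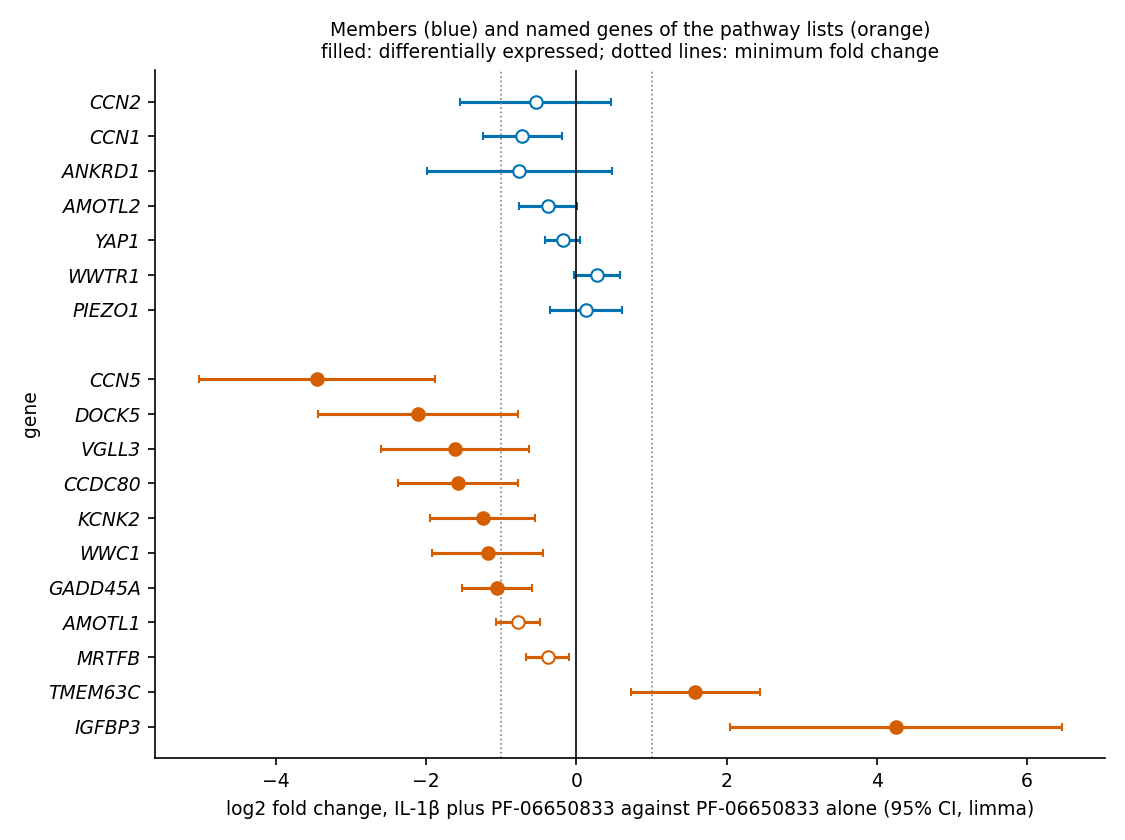
Log2 fold change with 95% confidence interval from limma (horizontal axis) for the 7 tested genes (blue) and for the named genes of the pathway lists (orange), with filled points for differentially expressed genes and dotted lines at the minimum fold change. The blue intervals of CCN2, CCN1 and ANKRD1 cross -1, those of AMOTL2, YAP1, WWTR1 and PIEZO1 do not reach it, and CCN5 (-3.46) and IGFBP3 (4.25) lie farthest from 0.

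From the same fit, 81 tested genes of 7 pathway lists were read. They include CCN1, CCN2, ANKRD1, AMOTL2 and PIEZO1, so the list counts and medians are not separate from those genes. VGLL1, TRPC6, TMC1, TMC2, STOML3 and PIEZO2 were above 0 reads in too few libraries to be tested. Of the 81 genes 9 passed both thresholds, 2 being higher and 7 lower with IL-1β and the inhibitor, against 3.11% higher and 3.57% lower of all tested genes. With the replicate block 3 were higher and 8 lower (4.01% and 4.25% of all genes). By the adjusted p alone 5 were higher and 17 lower (7.57% and 7.89% of all genes). The adjusted p alone with the block gave 7 higher and 21 lower (10.9% and 11.3% of all genes). Each of the 9 moved the same way in 5 of 5 donors, as did 16% of all genes upward and 16.8% downward. The 9 were selected by both thresholds in these same libraries, which favours such agreement, so it is not separate evidence. The median log2 fold change of the 81 genes was -0.15, against -0.01 over all tested genes. The count of 9 rested on several libraries and was 5 without donor 1, 3 without donor 2 and 4 without donor 5 in the group IL-1β and the inhibitor, and 2, 1 and 3 when both libraries of donors 1, 2 and 5 were left out.

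The target signature, a list of 22 genes used as readouts of YAP and TAZ that includes CCN1, CCN2, ANKRD1 and AMOTL2, moved in both directions. Apart from those 4 genes, 1 of 18 rose and 3 fell by both thresholds, against 3.11% and 3.57% of all tested genes. By the adjusted p alone 1 of the 18 was higher and 5 were lower, against 7.57% and 7.89% of all tested genes. Among the lower genes were AXL (-0.59, adjusted p = 0.0327) and NT5E (-0.58, adjusted p = 0.0241, both from limma and named after their values were seen). The median log2 fold change of the 18 was -0.11. IGFBP3, which encodes a carrier of insulin-like growth factors, rose in all 5 donors. Its log2 expression lay between 6.64 and 9.41 with the inhibitor alone and between 8.87 and 14.89 with IL-1β and the inhibitor (log2 fold change 4.25, standard error 1.00, adjusted p = 0.0160 from limma). Donor 4 had the lowest value in both groups. The genes of this list that fell by both thresholds were GADD45A, CCDC80 and DOCK5, each lower in 5 of 5 donors. They are a stress response gene (GADD45A, -1.06, adjusted p = 0.00730), a matrix protein (CCDC80, -1.57, adjusted p = 0.0147) and an activator of RAC (DOCK5, -2.10, adjusted p = 0.0379, all from limma). Left-out libraries or donors, 20 fits in all, cost DOCK5 its call 13 times, and GADD45A lies close to the minimum fold change. The kinase gene NUAK2, named after its values were seen, passed both thresholds with the replicate block (log2 fold change 1.05, adjusted p = 0.0292 from limma) and not without it (0.0631). Counted by donor, 14, 17, 14 and 18 of the 22 signature genes were lower with IL-1β in donors 1, 2, 4 and 5. In donor 3 the count was 7 of 22. Of all tested genes 49.9%, 50.5%, 48.4%, 50.2% and 50.3% were lower in donors 1 to 5. The 22 include the 4 target genes in which the donor 3 pattern was noticed, so these counts are not separate from it.

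Among the 6 genes of the CCN family CCN5, listed as WISP2 and known as a member that lacks the C-terminal module of its relatives, fell most. It was at 10.86, 11.11, 7.54, 10.21 and 12.20 in donors 1 to 5 with the inhibitor alone and at 6.27, 7.09, 7.22, 7.83 and 6.24 with IL-1β and the inhibitor. All 5 donors fell, donor 3 least, and the groups overlapped through donors 3 and 4 (log2 fold change -3.46, standard error 0.72, adjusted p = 0.00878 from limma). For CCN3 (-0.60, adjusted p = 0.368), CCN4 (0.11, adjusted p = 0.885) and CCN6 (0.33, adjusted p = 0.469, all from limma) no difference was detected.

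Of 18 tested genes of the Hippo kinase cassette and its upstream regulators 1 was differentially expressed, against 6.68% of all tested genes. This was WWC1, or KIBRA, a scaffold that promotes LATS activity, which fell in 5 of 5 donors (-1.18, standard error 0.34, adjusted p = 0.0362 from limma) and lost its call in 11 of the 20 fits without a library or donor. With the adjusted p alone 3 genes passed, all lower, against 15.5% of all tested genes in either direction. Beside WWC1 these were SAV1, the scaffold of the Hippo kinases (-0.92, adjusted p = 0.000464), and MOB1B, an activator of LATS (-0.28, adjusted p = 0.0387, both from limma and named after their values were seen). SAV1 lay between 12.13 and 12.37 with the inhibitor alone and between 11.06 and 11.58 with IL-1β and the inhibitor, without overlap. The kinases STK3 (-0.09), STK4 (0.11), LATS1 (-0.26) and LATS2 (-0.37) did not pass (adjusted p-values of 0.597, 0.539, 0.188 and 0.260 from limma).

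In the list of TEAD factors and VGLL cofactors 1 of 7 tested genes was differentially expressed, against 6.68% of all tested genes. VGLL3, a cofactor that competes with YAP for TEAD, fell in 5 of 5 donors (-1.62, standard error 0.45, adjusted p = 0.0331 from limma), from 10.43 to 13.02 with the inhibitor alone to 9.55 to 11.18 with IL-1β and the inhibitor, and lost its call in 11 of the 20 fits without a library or donor. By the adjusted p alone TEAD2 was higher (0.69, adjusted p = 0.00258) and TEAD4 lower (-0.56, adjusted p = 0.0194, both from limma and named after their values were seen), each in 5 of 5 donors. TEAD1 (-0.08, adjusted p = 0.869) and TEAD3 (-0.19, adjusted p = 0.473) did not pass.

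Of 10 tested partners that bind YAP, TAZ or LATS 0 passed both thresholds in limma (6.68% of all genes), also with the replicate block (8.26% of all genes). By the adjusted p alone 3 passed, all lower, against 15.5% of all genes in either direction and 7.89% lower. An unadjusted p below 0.05 was seen in 6 (29.7% of all genes). AMOTL1, an angiomotin like AMOTL2, had the smallest adjusted p. It was at 11.55, 11.69, 11.56, 11.50 and 11.61 in donors 1 to 5 with the inhibitor alone and at 10.77, 10.64, 11.32, 10.72 and 10.56 with IL-1β and the inhibitor. The groups did not overlap, and donor 3 was the highest with IL-1β (log2 fold change -0.78, standard error 0.13, adjusted p = 0.00336 from limma). The other genes past the adjusted p were the tight junction gene TJP1 (-0.66, adjusted p = 0.00461) and WTIP, a LIM protein that binds LATS (-0.50, adjusted p = 0.0409, both from limma and named after their values were seen).

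Of 19 tested channels and PIEZO partners 1 rose and 1 fell, against 3.11% and 3.57% of all tested genes. TMEM63C, of a family of osmotically and mechanically activated channels, rose in 5 of 5 donors (1.58, standard error 0.39, adjusted p = 0.0197 from limma), and KCNK2, which encodes the stretch-sensitive potassium channel TREK-1, fell in 5 of 5 donors (-1.24, standard error 0.32, adjusted p = 0.0229 from limma). KCNK2 lost its call in 7 and TMEM63C in 4 of the 20 fits without a library or donor. By the adjusted p alone, and named after their values were seen, TMEM63B (0.49) and the volume-regulated channel gene LRRC8A (0.52) were also higher and TRPV2 (-0.73) and TMEM63A (-0.92) lower. For the PIEZO partners MDFIC (0.07, adjusted p = 0.727) and MTMR2 (-0.04, adjusted p = 0.836) and for TRPV4 (-0.06, adjusted p = 0.922, all from limma) no difference was detected. In the branch of SRF and its MRTF co-activators, another route from actin to the nucleus, 0 of 4 genes passed both thresholds (6.68% of all tested genes). By the adjusted p alone 0 of 4 passed as well (15.5% of all tested genes). The smallest adjusted p was that of MRTFB, listed as MKL2 (-0.38, adjusted p = 0.0713 from limma), and 1 had an unadjusted p below 0.05 beside it, MRTFA (0.41). With the replicate block MYOCD, a cardiac and smooth muscle co-activator of SRF named after its values were seen, passed both thresholds (-1.01, adjusted p = 0.00284 from limma, against 0.391 without the block). MRTFA passed the adjusted p alone with the block, in the other direction (0.41, adjusted p = 0.0116 from limma, higher in 5 of 5 donors).

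**Figure D5:**
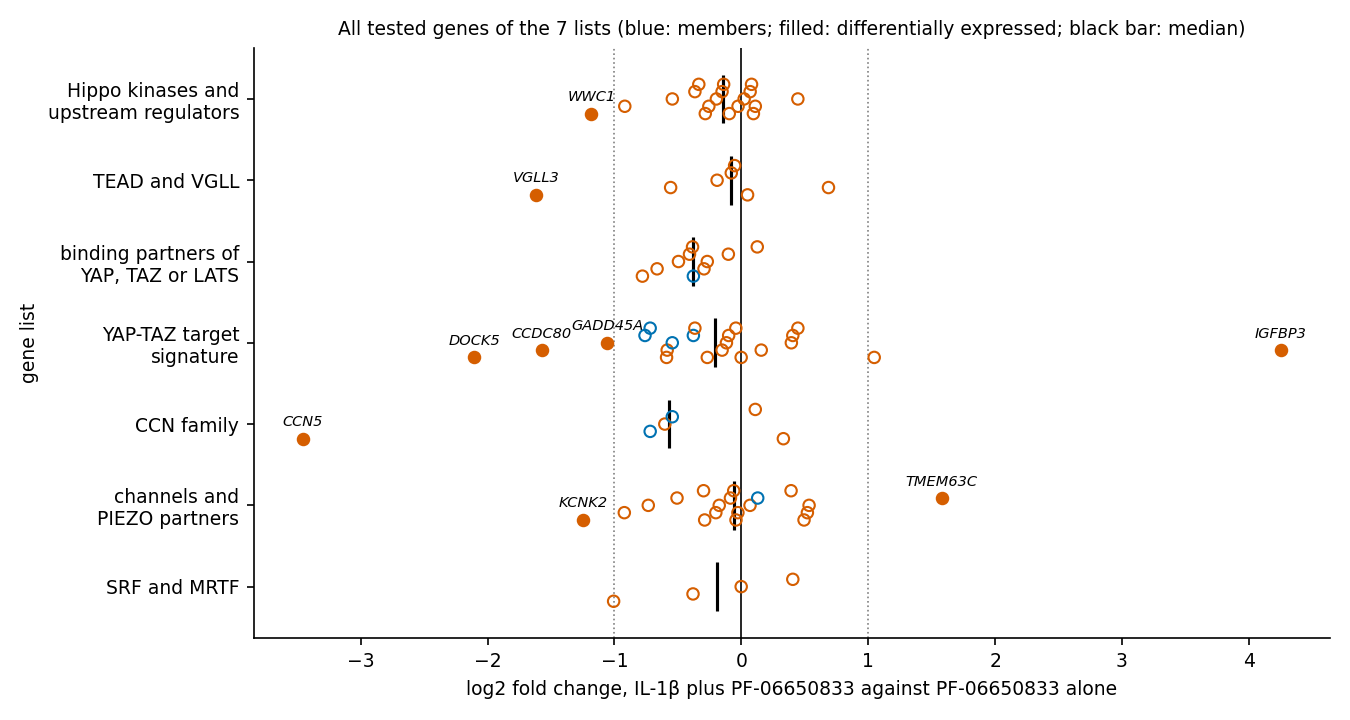
Log2 fold change (horizontal axis) of every tested gene of the 7 lists (rows), with CCN1, CCN2, ANKRD1, AMOTL2 and PIEZO1 in blue and other genes in orange. Filled points are differentially expressed genes, and a black bar is the median of a list. The 9 filled genes are named, and the median of each list lies between -0.57 (CCN family) and -0.06 (channels and PIEZO partners).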

How the data were processed

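Poly(A) RNA libraries of 5 tenocyte lines under 2 treatments were analysed, with groups from the treatment label and donors from the line name in the titles. Reads were assigned by the authors to EquCab3.0 transcripts in Salmon (version 1.8, GC bias corrected), summed to genes and tested in DESeq2 (version 1.36), a test not repeated here. The authors deposited log2 values that are normalized between libraries. The transformation is not named in the sources used here and was recognised as variance stabilization from its shared value at 0 reads. All 10 columns were used. Normalized counts and estimated reads were recovered by inverting it and are approximate.

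The fit used limma (3.58.1, under R 4.3.3) with its trend option, on genes detected in 5 or more libraries, without and with the donor as a replicate block. Donors pair the libraries by label, and deviations from the group means correlated across genes at 0.367 to 0.506 in the 5 pairs. Log2 differences between related genes were compared with exact two-sided permutation tests over 252 assignments. The fit was tested on simulated data.

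The members and gene lists were chosen with earlier results of these data known. In each pathway list the differentially expressed genes were named, at most 5 by adjusted p, or else the gene with the smallest adjusted p. One list gene is not reported here and is left out of the counts. Further genes of the lists were named after their values were seen. Alternatives were other thresholds, filters, scales (pseudocounts of 1 and 0.5), normalizations, variance models, the block, and omission of single libraries or donors. The estimated depth sets the precision of low genes such as PIEZO2. Sequences were not used here, symbols were matched to RefSeq names of another horse assembly (TB-T2T), and 1 tenocyte marker is not analysed here.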

Additional observations from a re-analysis of the deposited data

Results flagged for a closer look

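Among 37 sets of 5 libraries (a gene in a treatment group), 4 held a single library well away from the rest, 3 of them from donor 4, and chance alone gives about 1.85. For PIEZO1, donor 4 with IL-1β and the inhibitor was at 13.02, against 12.18 to 12.35 in the other donors. For KCNK2, donor 4 was at 11.13 with the inhibitor alone, against 9.86 to 10.00, and at 9.98 with IL-1β and the inhibitor, against 8.44 to 8.84.
For AMOTL1, donor 3 was at 11.32 with IL-1β and the inhibitor, against 10.56 to 10.77 in the other donors.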

How the results depend on the processing

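The 7 tested genes kept their direction in all settings run, except PIEZO1, which ranged from -0.015 (without donor 4 of the IL-1β group) to 0.28 when a library or donor was left out. Of 612 combinations of 18 named genes and 34 settings, the call held in 540, was lost in 67 and gained in 4, and 1 reversed. The cause was not tested. The adjusted p alone called 2782 genes overall and 22 in the pathway lists, a stricter adjusted p of 0.01 called 719 and 2, and the replicate block without the fold threshold called 3996 and 28, with 1 of the 8 genes (CCN1). The replicate block with both thresholds called 1486. The replicate block on log2(normalized count + 1) gave 1809 genes overall. Leaving out a library or donor, the calls ranged from 762 to 1677 overall (762, 790 and 777 without donors 1, 2 and 5, and 1422 without donor 4 of the IL-1β group, with 9 in the lists), from 1 to 13 in the lists and from 0 to 1 among the 8 genes, the 1 being ANKRD1 without donor 3 in a fit with the replicate block. The YAP1 minus WWTR1 change ranged from -0.51 to -0.41 in these fits. With the donors paired it was -0.45 (adjusted p = 0.188, exact sign-flip test), and without any 1 donor the adjusted p was 0.0857 (exact permutation test), in both cases the smallest such a design allows. CCN1 minus CCN2 ranged from -0.36 to 0.023 (without donor 3) and PIEZO1 minus PIEZO2 from 0.17 to 0.45. Under quantile normalization PIEZO1 minus PIEZO2 was not run, since PIEZO2 is below the filter. Among the list genes the replicate block changed the calls of NUAK2 and MYOCD and no other. Depth limits PIEZO2.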

Other observations

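In the order of genes of another horse assembly, in RefSeq, some neighbours of the 8 genes moved more than they did. These neighbours were chosen by position after the data had been seen. BIRC3, an inhibitor of apoptosis and a known target of NFκB, lies next to YAP1 and had a log2 fold change of 2.49 (adjusted p = 0.00158 from limma). ENPP1, an enzyme of pyrophosphate production, lies next to CCN2 and had a log2 fold change of -2.56 (adjusted p = 0.00212 from limma). PCGF5, a polycomb gene, lies next to ANKRD1 and had a log2 fold change of -1.46 (adjusted p = 0.00402 from limma). The other tested neighbours of the 8 genes did not pass both thresholds. Among them RYK, beside AMOTL2, passed the adjusted p alone (log2 fold change -0.35, adjusted p = 0.0358), and DDAH1, beside CCN1, had the largest fold change (-1.32, adjusted p = 0.0835, both from limma).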
